A study of Papio hamadryas with 17 samples.

Results

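The claudins described here are 10 genes, CLDN1, CLDN2, CLDN3, CLDN4, CLDN5, CLDN7, CLDN8, CLDN10, CLDN16 and CLDN19, taken by the gene symbol that opens the name field of the 2 deposited transcript tables. They are 10 of the 10007 genes found in both tables, and they have 13 transcripts, with 3 for CLDN10, 2 for CLDN7 and 1 for each other gene. All 10 passed the filter on low values, which asked for 6 or more of 14 libraries with a signal of 1 or more and kept 9709 genes. Claudins are membrane proteins of the tight junction. They meet across the gap between neighbouring epithelial cells and decide which ions and how much water pass between the cells. Each nephron segment makes its own set, so that the proximal tubule is leaky to sodium and water, the thick ascending limb passes calcium and magnesium, and the collecting duct is tight.

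RNA was sequenced from kidney cortex biopsies of 17 baboons (Papio hamadryas), 8 females aged 15 to 19 and 9 males aged 6 to 13, with 1 library per animal. Every animal had been fed low-salt chow for life, received no treatment, and was biopsied under ultrasound guidance while sedated with ketamine and kept on isoflurane. The labels give age without a unit. The study asked how gene networks of the kidney cortex differ between the sexes. Every female was older than every male, and the libraries of each sex carry their own name series, so sex, age and library series cannot be told apart.

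Levels are given as signal, the deposited value minus its offset of 1, summed over a gene's transcripts. Signal is not given per transcript length, so levels are compared between libraries and not between genes. Libraries female 1, female 2 and male 6 were rich in skeletal muscle RNA. The 2 skeletal muscle genes held in both tables, of 16 on the marker list, summed to 54348 to 111219 in these 3 libraries and to at most 21.9 in the other 14. Unless stated otherwise, values are over those 14 libraries, 6 females and 8 males. The value of 1 read, seen as the step between low values, lay between 0.0531 and 0.0946 in 13 of the 14 libraries and was 0.318 in female 6, the shallowest. In a bulk biopsy, fewer cells of a type and less RNA per cell cannot be told apart.

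**Figure D1:**
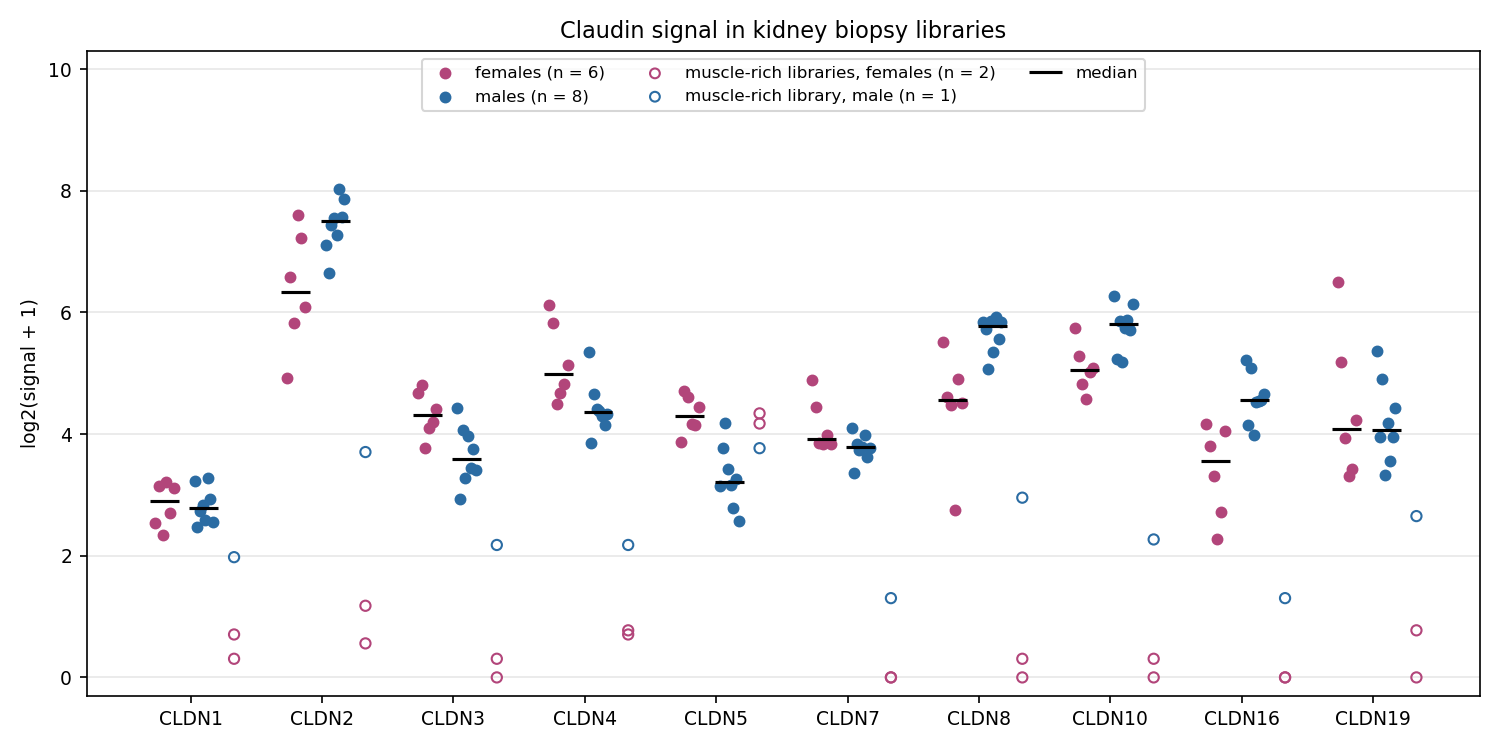
Signal of the 10 claudins on a log2(signal + 1) axis, 1 point per library: filled points are the 14 libraries (6 females, 8 males), open points the 3 muscle-rich libraries, and bars the medians. CLDN5 is the gene whose open points, 12.6 to 19.2 in signal, lie among the filled ones.

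Segment markers set the frame. LRP2, the endocytic receptor megalin of the proximal tubule, had a signal of 7.98 at the lowest, 60.8 at the median and 120.9 at the highest in females. In males it was 134, 206 and 294, so every female lay below every male. The sexes did not overlap in 11.9% of all genes. UMOD, the uromodulin of the thick ascending limb, ran from 1669 over a median of 5729.8 to 11030.4 in females and from 2639.9 over 5247.9 to 9625 in males. AQP2, the vasopressin-regulated water channel of collecting duct principal cells, ran from 45.2 over 143 to 376 in females and from 141 over 252 to 345 in males. UMOD and AQP2 overlapped between the sexes. Female 3 had the lowest LRP2 and the highest UMOD and AQP2, and female 6 the lowest UMOD and AQP2. All 14 genes of the proximal tubule list were lower in females by limma, where 35.5% of all genes were. Their summed signal was 274 to 4389.5 in females and 4577 to 9865 in males.

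CLDN2 forms the pore for cations and water that makes the proximal tubule leaky. Its signal in females was 29.3 at the lowest, 80.5 at the median and 194 at the highest, and in males 99.0, 179.6 and 259.9. Female 3 was the lowest of the 14 and male 7 the highest, the same libraries that were lowest and highest for LRP2. CLDN2 was correlated with LRP2 over the 14 libraries (Pearson r = 0.92, permutation p = 7e-05, adjusted over 30 claudin and marker pairs 0.00105; Spearman rho = 0.84, adjusted p = 0.006). The correlation was 0.87 within females (exact permutation p = 0.0194) and 0.96 within males (exact permutation p = 0.000546). Without female 3 and female 4, the libraries farthest from the median of LRP2, it was 0.88.

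The slope of CLDN2 on LRP2 was 0.59 ± 0.07 (SE), a change in log2(signal + 1) per unit of the same scale (limma, adjusted p = 1.03e-05). CLDN2 was the 1 claudin of 10 with a positive slope past the threshold, against 18.1% of all genes, so a positive slope on LRP2 was common in this table. CLDN2 passed under all 24 alternatives tried, with slopes between 0.53 and 1.09. The signal of CLDN2 relative to LRP2 in the same library was 0.874 to 3.67 in females and 0.741 to 0.964 in males. With the 3 males of library numbers over 100 alone, p was 0.0714 (exact permutation). The ratio over all males was 1.96-fold higher in females by geometric mean (exact permutation test, p = 0.00133, adjusted over 6 ratios 0.00266). It was above the highest male in 5 of 6 females, and female 3, with the least LRP2, had the highest ratio. LRP2 itself differed by -2.01 (log2, females minus males, limma adjusted p = 0.00226), where the median of all genes was -0.35. A gene at that median would also have a higher ratio to LRP2 in females, so the higher ratio is not particular to CLDN2. The share of all genes with such a ratio was not computed.

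**Figure D2:**
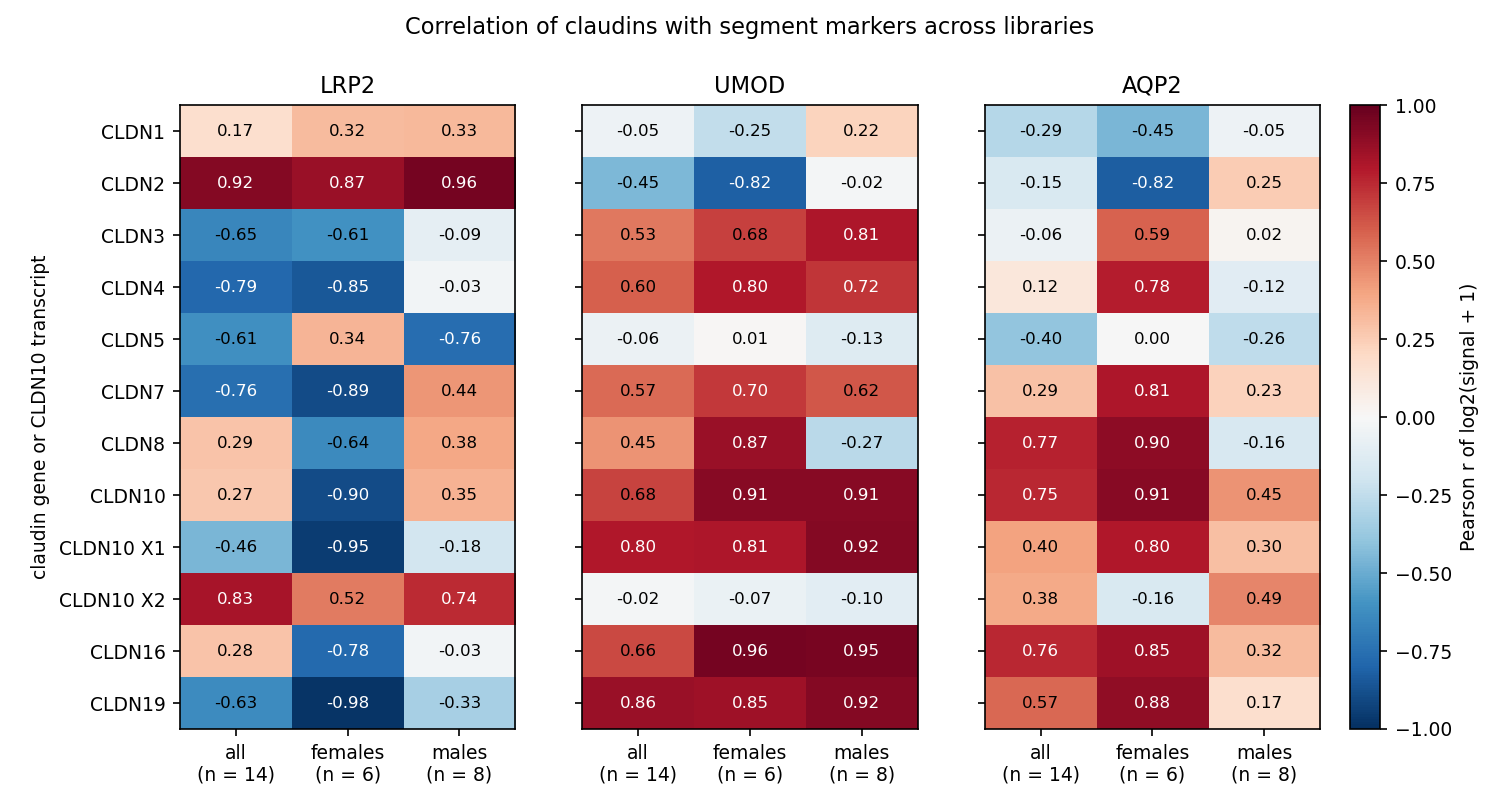
Pearson r of each claudin, and of CLDN10 transcripts X1 and X2, with LRP2, UMOD and AQP2, over all 14 libraries and within each sex; colour runs from -1 (blue) to 1 (red). Under LRP2, CLDN2 and CLDN10 X2 are red in all 3 columns, and CLDN1 is so only palely (r of 0.17 to 0.33). Under UMOD, CLDN3, CLDN4, CLDN7, CLDN10, CLDN10 X1, CLDN16 and CLDN19 are red in all 3 columns.

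CLDN16 and CLDN19 work together in the tight junction of the thick ascending limb, and inherited loss of either causes wasting of magnesium and calcium in people. CLDN16 signal in females was 3.82 at the lowest, 10.9 at the median and 17.0 at the highest. In males it was 14.9, 22.5 and 36.1. The lowest females were female 6, where the value rests on 12 reads, and female 7, and the highest library was male 1. CLDN19 was 8.91, 16.01 and 89.1 in females and 9.003, 15.9 and 40.3 in males. Female 3 had more than any other library for CLDN19, and the sexes overlapped from end to end.

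Within each sex both genes rose and fell with UMOD. For CLDN16, r with UMOD was 0.96 within females (exact permutation p = 0.00278, adjusted over 30 pairs 0.0417) and 0.95 within males (exact permutation p = 0.000471, adjusted 0.00818). For CLDN19 it was 0.85 within females (exact permutation p = 0.0292, adjusted 0.0705) and 0.92 within males (exact permutation p = 0.00129, adjusted 0.0104). Pooled over the sexes, r was 0.66 for CLDN16 (permutation p = 0.0105, adjusted 0.0314; rho = 0.53, adjusted p = 0.102) and 0.86 for CLDN19 (permutation p = 7e-05, adjusted 0.00105; rho = 0.94, adjusted p = 0.0003). Without female 6 and female 3, the libraries farthest from the median of UMOD, the pooled values were 0.53 and 0.89. Within females the markers moved together: UMOD had r = 0.93 with AQP2 and -0.80 with LRP2. CLDN19 there had r = -0.98 with LRP2 and 0.88 with AQP2, and CLDN16 had -0.78 and 0.85. The values within females therefore cannot tell UMOD from the other markers. Within males UMOD had r = 0.42 with AQP2 and -0.04 with LRP2.

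In the limma fit on UMOD alone CLDN19 passed, with a slope of 1.07 ± 0.17 (SE, adjusted p = 0.00778), and it was the 1 claudin of 10 to do so against 0.989% of all genes. With sex as a term 4 claudins passed with a positive slope, against 4.47% of all genes: CLDN16 with a slope of 0.73 ± 0.08 (SE, limma adjusted p = 0.000302), CLDN19 with 1.07 (adjusted p = 0.00271), CLDN10 with 0.46 (adjusted p = 0.00928) and CLDN4 with 0.54 (adjusted p = 0.0277). CLDN16 thus passed only once the sexes were allowed separate levels.

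The CLDN16 signal per 1000 of UMOD signal shows this offset. In females it was 1.54, 1.75, 2.13, 2.29, 1.46 and 2.13 in females 3 to 8. In males it was 3.75, 4.58, 4.81, 5.63, 3.78, 4.82, 5.01 and 3.86 in males 1 to 5 and 7 to 9. Every female lay below every male. The ratio in females was 0.414 of that in males (exact permutation test over 3003 groupings, p = 0.000333, the smallest it can give, adjusted over 6 ratios 0.000999). Of all other genes tested, 0.989% had a ratio to UMOD that put every female below every male. With the 5 males of library numbers under 100 alone p was 0.00216, and with the 3 of the other series it was 0.0119. Each is the smallest its group sizes allow, which follows from the lack of overlap and is no further test. The muscle-rich male 6 had 1.56, which rests on 5 reads of CLDN16 with an exact Poisson interval of 0.508 to 3.65 for counting error only, below the other males.

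CLDN19 per 1000 of UMOD did not differ in the same way. It was 2.44 to 8.07 in females and 2.33 to 4.26 in males (exact permutation test, p = 0.362). The ratio of CLDN19 to CLDN16 therefore separated the sexes. It was 1.14 to 5.25 in females and 0.484 to 1.12 in males, without overlap, and 2.88-fold higher in females by geometric mean (exact permutation test, p = 0.000333, adjusted over 6 ratios 0.000999). Against CLDN16, 6.51% of all other genes had every female above every male, so this is a property CLDN19 shares with many genes. The CLDN19 to CLDN16 ratio of male 6 was 3.60. The 6 ratios were chosen after values had been seen, and a within-library ratio does not depend on how libraries were scaled.

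**Figure D3:**
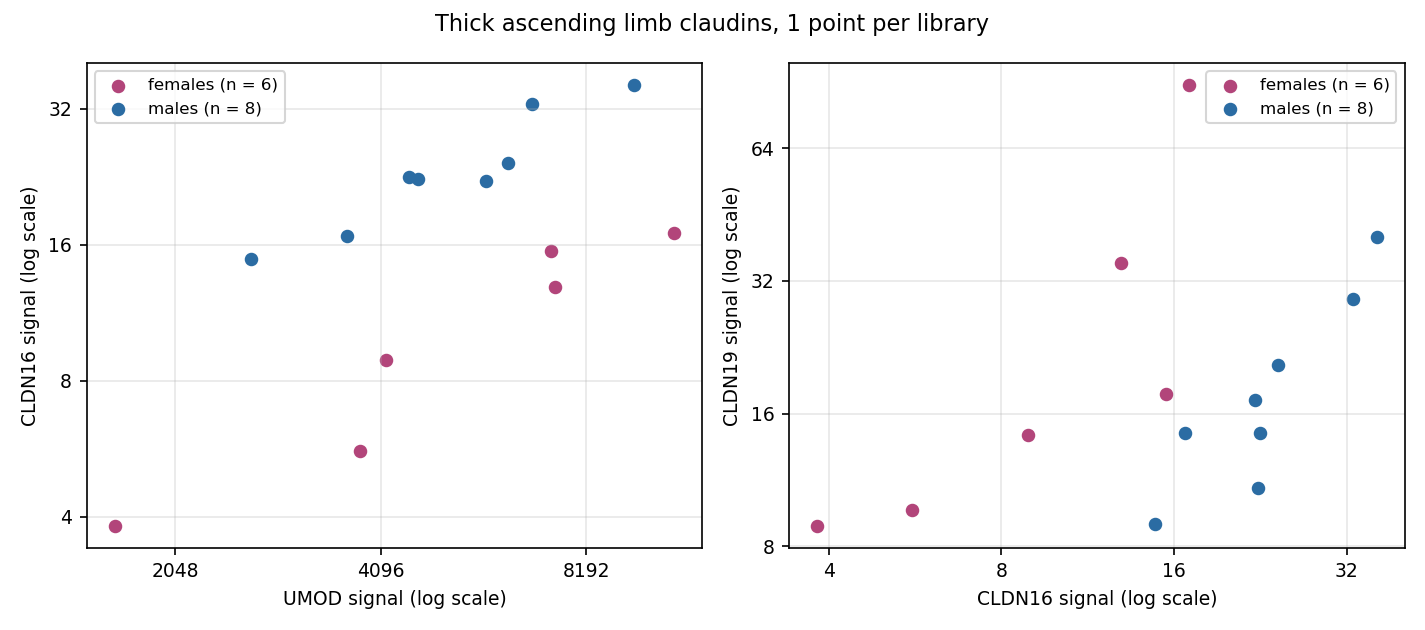
CLDN16 signal against UMOD signal (left) and CLDN19 signal against CLDN16 signal (right), log scales, 1 point per library, 6 females and 8 males. At a like UMOD signal the females lie below the males in CLDN16, and on the right all females lie on the upper left side of the males.

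CLDN10 is known to be made from alternative first exons as a form that passes cations in the thick ascending limb and a form that passes anions in the proximal tubule. In the tables transcript X1 (XM_003913999.3) runs from 73352585 to 73378015 on the plus strand of NC_018168.2, in a genome build that the sources used here do not name. Transcripts X2 (XM_017951359.2) and X3 (XM_017951360.2) start upstream, at 73241807 and 73241825, and share the same end. The transcripts were not matched to the named protein forms. Values of CLDN10 were whole multiples of 1 read in 6 of 17 libraries, against 17 of 17 for 7 other claudins, so no counting interval is given for it.

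Transcripts X1 and X2 differed in what they followed. X2 was 4.48 at the lowest, 5.79 at the median and 20.6 at the highest in females and 16.8, 27.5 and 43.8 in males, and female 7 alone of the females reached the male range. X2 was correlated with LRP2 (r = 0.83, permutation p = 5e-05, adjusted over 15 transcript and marker pairs 0.00075; rho = 0.92, adjusted p = 0.00015) and had r = -0.02 with UMOD. Within the sexes its r with LRP2 was 0.52 in females (exact permutation p = 0.263) and 0.74 in males (exact permutation p = 0.0342), and without female 3 and female 4 it was 0.85. X1 was 10.7, 22.1 and 48.3 in females and 5.18, 20.3 and 53.3 in males, a full overlap. X1 was correlated with UMOD (r = 0.80, permutation p = 0.00053, adjusted 0.00397; rho = 0.84, adjusted p = 0.00225), at 0.81 within females, 0.92 within males and 0.89 without female 6 and female 3. Within females X1 also had r = -0.95 with LRP2 and 0.80 with AQP2. X3 was at most 6.27 in every library. Its r with LRP2, UMOD and AQP2 was 0.37, -0.20 and -0.19 (permutation, adjusted p = 0.274, 0.566 and 0.570).

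X1 made up 34.2% to 91.4% of CLDN10 signal in females (68.6% ± 19.3, SD, n = 6) and 14.7% to 69.8% in males (38.5% ± 16.6, SD, n = 8). The means differed between the sexes (exact permutation test, p = 0.0130, adjusted over 6 ratios 0.0195), with overlap: female 7 at 34.2% and male 1 at 69.8% lay among the other sex. With the 5 males of library numbers under 100 alone, p was 0.0541. The X1 share fell as LRP2 rose (r = -0.82, permutation p = 8e-05, adjusted over 4 markers 0.00018; rho = -0.82, adjusted p = 0.00236), with -0.80 within females (exact permutation p = 0.0847), -0.46 within males (exact permutation p = 0.247) and -0.74 without female 3 and female 4.

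Summed over its transcripts, CLDN10 was 22.9, 32.1 and 52.8 in females and 35.4, 54.96 and 76.4 in males at the lowest, median and highest. The sum moved closely with CLDN16 over the 14 libraries (r = 0.89, permutation p = 3e-05, adjusted over 7 claudin pairs 7e-05; rho = 0.92, adjusted p = 7e-05), at 0.80 within females and 0.87 within males. In the fit on CLDN16, CLDN10 passed with a slope of 0.54 ± 0.09 (SE, limma adjusted p = 0.00476), where 21.8% of all genes passed with a positive slope. CLDN19 had a slope on CLDN16 of 0.51 ± 0.25 (SE) that did not pass (limma adjusted p = 0.14). CLDN16 and CLDN19 had r = 0.47 pooled (permutation p = 0.0899, adjusted 0.157), but 0.81 within females and 0.90 within males.

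**Figure D4:**
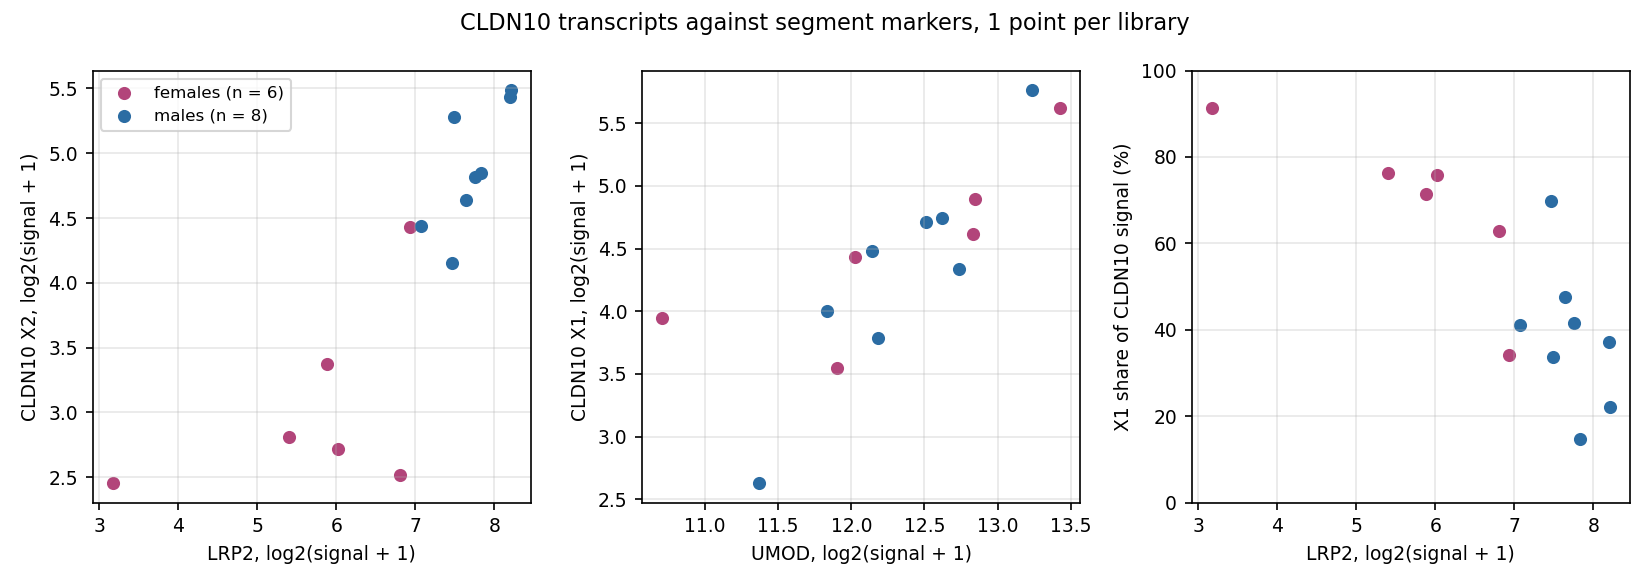
CLDN10 transcript X2 against LRP2 (left), X1 against UMOD (middle), both on log2(signal + 1) axes, and the X1 share of CLDN10 signal in percent against LRP2 (right), 1 point per library. X2 climbs with LRP2, X1 climbs with UMOD, and the X1 share goes from 91.4% in the library with the least LRP2 to between 14.7% and 69.8% in males.

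CLDN3, CLDN4, CLDN7 and CLDN8 are claudins of the distal nephron and collecting duct. CLDN3 seals the junction, CLDN4 and CLDN8 work together in its handling of chloride, and CLDN7 is abundant along the collecting duct. CLDN3 was 12.6, 18.9 and 26.9 in females and 6.64, 11.1 and 20.5 in males. CLDN4 was 21.5, 30.8 and 68.6 in females and 13.5, 19.5 and 39.7 in males. CLDN7 was 13.3, 14.2 and 28.7 in females and 9.25, 12.7 and 16.1 in males. Male 2 was the lowest library and male 1 the highest male for all 3 genes. Each range of females overlapped that of males.

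These 3 genes moved together. CLDN3 and CLDN4, neighbours on NC_018154.2 (45042897 to 45044502 on the minus strand and 45102517 to 45106632 on the plus strand), had r = 0.90 over the 14 libraries (permutation p = 1e-05, the smallest that 100000 resamples can give, adjusted 7e-05; rho = 0.93, adjusted p = 7e-05). CLDN4 and CLDN7 had r = 0.92 (permutation p = 3e-05, adjusted 7e-05; rho = 0.82, adjusted p = 0.00147). Within the sexes the first pair had 0.93 and 0.83 and the second 0.92 and 0.82, in females and males.

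CLDN8 differed from them in the direction of its sex difference. Its signal was 5.73, 22.7 and 44.6 in females and 32.5, 54.0 and 60.0 in males, with female 6 far below every other library at 18 reads and female 3 the 1 female inside the male range. Its r with CLDN3, CLDN4 and CLDN7 was -0.39, -0.18 and -0.05 (permutation p = 0.172, 0.543 and 0.863). Within females these r were 0.43, 0.59 and 0.63, and within males -0.42, -0.02 and 0.11, so the pooled values differ from those within females. None of the 3 passed in the fit on CLDN8, while CLDN16 with a slope of 0.73 ± 0.17 (SE, limma adjusted p = 0.00409) and CLDN10 with 0.44 ± 0.11 (SE, adjusted p = 0.00772) did, 2 of the other 9 claudins against 32.6% of all genes. CLDN5 had a negative slope on CLDN8, -0.53 ± 0.16 (SE, adjusted p = 0.0174).

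In the fit on AQP2 3 claudins passed, against 11.3% of all genes. They were CLDN8 with a slope of 0.85 ± 0.19 (SE, limma adjusted p = 0.0173), CLDN16 with 0.80 ± 0.19 (adjusted p = 0.0195) and CLDN10 with 0.49 ± 0.12 (adjusted p = 0.0242). All 3 calls rest on female 6, the shallowest library: without it adjusted p was 0.406, 0.343 and 0.343. With sex as a term CLDN8 (0.63, limma adjusted p = 0.0419), CLDN19 (0.90, adjusted p = 0.0444) and CLDN16 (0.57, adjusted p = 0.0468) passed. CLDN10 did not (0.37, adjusted p = 0.0673). That fit was not repeated without female 6. CLDN19 also passed in females only (1.04, limma adjusted p = 0.0443). CLDN8 had r = 0.77 with AQP2 (permutation p = 0.00464, adjusted 0.0232; rho = 0.47, adjusted p = 0.15), 0.90 within females (exact permutation p = 0.0236), -0.16 within males (exact permutation p = 0.7) and 0.38 without female 6 and female 7. CLDN3, CLDN4 and CLDN7 had r of -0.06, 0.12 and 0.29 with AQP2 over the 14 libraries. Within females their r was 0.59, 0.78 and 0.81 (exact permutation p = 0.211, 0.0583 and 0.0625), and within males 0.02, -0.12 and 0.23 (exact permutation p = 0.956, 0.784 and 0.589). With UMOD the same 3 genes had r of 0.53, 0.60 and 0.57 over the 14 libraries (permutation, adjusted p = 0.0976, 0.0537 and 0.0742). Their r with UMOD was 0.68, 0.80 and 0.70 within females and 0.81, 0.72 and 0.62 within males.

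Against LRP2 the slopes of 5 claudins were negative and passed, against 2.86% of all genes: CLDN4 at -0.37 (limma adjusted p = 0.003), CLDN7 at -0.20 (adjusted p = 0.0195), CLDN19 at -0.42 (adjusted p = 0.0293), CLDN3 at -0.26 (adjusted p = 0.034) and CLDN5 at -0.31 (adjusted p = 0.0432). The calls changed with the libraries used, in different ways for different genes. Without female 3 and female 4, the libraries with the least LRP2, the slope of CLDN5 was steeper at -0.79, that of CLDN3 was -0.27, and those of CLDN7 and CLDN19 were -0.0056 and 0.067. Without female 3 and female 4 CLDN5 was the 1 that passed, without female 4 it was CLDN4, and without female 3 they were CLDN3, CLDN4 and CLDN5. The calls of CLDN3 and CLDN5 were also lost without female 8, male 4, male 7 or male 9, that of CLDN5 without female 5, male 1, male 2, male 5 or male 8, and that of CLDN19 without male 4 or male 7. Without female 3, CLDN8 (0.61, limma adjusted p = 0.0257) and CLDN10 (0.37, adjusted p = 0.0254) had positive slopes that passed. With sex as a term CLDN19 was the 1 claudin with a negative slope that passed, at -0.84 ± 0.15 (SE, limma adjusted p = 0.00137), against 2.14% of all genes. The test of a difference in slope between the sexes called 0 claudins and 0% of all genes for each of LRP2, UMOD and AQP2, and at an unadjusted p under 0.05 it named 2 claudins for each marker, where it named 22.8%, 8.87% and 10.1% of all genes.

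With the 3 markers in 1 limma fit, each claudin's slope on a marker is taken at fixed levels of the others. On LRP2, CLDN2 (0.57, adjusted p = 0.000117), CLDN16 (0.34, adjusted p = 0.00767) and CLDN10 (0.21, adjusted p = 0.0152) had positive slopes that passed, against 23.8% of all genes. CLDN4 (-0.26, adjusted p = 0.0173), CLDN5 (-0.32, adjusted p = 0.0345) and CLDN19 (-0.24, adjusted p = 0.0475) had negative ones, against 2.32%. With sex as a further term the positive slope of CLDN2 and the negative one of CLDN19 passed. On UMOD and on AQP2 0 claudins passed, against 0.0103% and 0.144% of all genes with positive slopes. UMOD and AQP2 themselves had r = 0.72 over the 14 libraries. At an unadjusted p under 0.05 the joint fit named 5 claudins for UMOD and 2 for AQP2, against 5% and 22.7% of all genes, and the slopes on UMOD of CLDN19, CLDN16, CLDN3, CLDN4 and CLDN10 lay between 0.46 and 0.83.

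CLDN1 is a sealing claudin of many epithelia and, in the glomerulus, of the cells that line its capsule. Its highest level over the 14 libraries was 2.14 times its lowest, the narrowest such range of the 10: from 4.07 over 6.57 to 8.27 in females and from 4.57 over 5.90 to 8.72 in males. Its slopes on LRP2, UMOD and AQP2 did not pass (limma adjusted p = 0.734, 0.945 and 0.51). CLDN1 and CLDN16 are neighbours on NC_018153.2 (181229564 to 181246651 on the minus strand and 181307003 to 181332582 on the plus strand), and their r was 0.01.

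CLDN5 is the claudin of endothelial junctions. In females of the 14 it was 13.6, 18.8 and 25.3 and in males 4.95, 8.27 and 17.2. Male 3 alone reached into the female range, and the other 7 males lay below every female. In the 3 muscle-rich libraries CLDN5 was 17.0 in female 1, 19.2 in female 2 and 12.6 in male 6, where the other 9 claudins were at most 0.71, 1.26 and 12.0. CLDN7 and CLDN16 were listed at 0 in female 1 and female 2, where 3 reads would have been a signal of 0.71 and 0.946. CLDN5 was thus the 1 claudin kept at a kidney-like level in the muscle-rich biopsies.

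The endothelial list had 11 genes tested of 15. Of these 2, EGFL7 (0.75, limma adjusted p = 0.0116) and ERG (0.93, adjusted p = 0.0341), were higher in females, where 2.2% of all genes were. CLDN5 followed EGFL7, a protein secreted by endothelial cells (r = 0.92, permutation p = 1e-05, adjusted over 11 genes 0.00011; rho = 0.95, adjusted p = 0.00011), at 0.65 within females, 0.90 within males and 0.87 without male 9 and male 7. For the other 10 the adjusted p of r was at least 0.243. TIE1 had r = 0.54, CDH5 0.51, ESAM 0.41, ERG 0.33, PECAM1 0.29, KDR 0.27, CLEC14A 0.26, FLT1 -0.16, PLVAP -0.33 and TEK -0.42. KDR and TEK are receptors and CDH5 is the junction cadherin of the vessel lining. The summed signal of the list was 201 to 279 in females and 154 to 265 in males. CLDN5 had r = -0.76 with LRP2 within males (exact permutation p = 0.0277) and 0.34 within females (exact permutation p = 0.557).

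Between the sexes 7 of the 10 claudins differed by limma. CLDN16 was lower in females by 1.21 ± 0.29 (log2, SE; means 10.6 and 24.0; adjusted p = 0.00377), CLDN8 by 1.18 ± 0.31 (means 24.3 and 50.005; adjusted p = 0.00674), CLDN2 by 1.06 ± 0.34 (means 98.0 and 178; adjusted p = 0.0224) and CLDN10 by 0.66 ± 0.20 (means 34.2 and 54.6; adjusted p = 0.016). CLDN5 was higher in females by 1.03 ± 0.23 (means 19.4 and 9.36; adjusted p = 0.00222), CLDN4 by 0.75 ± 0.26 (means 38.6 and 21.5; adjusted p = 0.034) and CLDN3 by 0.67 ± 0.22 (means 19.7 and 12.2; adjusted p = 0.027). CLDN7 at 0.37 ± 0.18 (adjusted p = 0.111), CLDN19 at 0.22 ± 0.44 (adjusted p = 0.732) and CLDN1 at 0.01 ± 0.18 (adjusted p = 0.96) did not pass. The call of CLDN2 was lost without female 5 (adjusted p = 0.0574). That of CLDN3 was lost without female 3, female 4, female 8 or male 9, and that of CLDN4 without any of these or male 2, male 5, male 7 or male 8, with adjusted p up to 0.0829. With all 17 libraries CLDN5 was the 1 claudin that passed (0.96, adjusted p = 0.00922), and with the males of library numbers under 100 they were CLDN5 and CLDN16. Thus 4 of 10 were lower, near the 35.5% of all genes, and 3 of 10 were higher, where 2.2% of all genes were. Of the 10, 0 had sexes that did not overlap, against 11.9% of all genes.

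The median of all genes tested was shifted by -0.35, and the median of the 10 claudins was 0.11. Relative to all genes CLDN16 stood at -0.86, CLDN8 at -0.84, CLDN2 at -0.72, CLDN10 at -0.32, CLDN3 at 1.02, CLDN4 at 1.097 and CLDN5 at 1.38. Of all genes 214 were higher and 3444 lower as deposited, and 1109 higher and 1598 lower when the libraries were scaled to a common median. Under that scaling all 10 claudins kept their sign: CLDN16 and CLDN8 still passed as lower, CLDN3, CLDN4 and CLDN5 as higher with CLDN7 added (0.75, limma adjusted p = 0.00172), while CLDN2 (-0.66, adjusted p = 0.165) and CLDN10 (-0.27, adjusted p = 0.227) did not. With age as a term 0 claudins and 1 of all genes passed. The differences were then 1.22 for CLDN5, -0.91 for CLDN8, -0.72 for CLDN10, -0.91 for CLDN16, -0.31 for CLDN2, 0.40 for CLDN3 and 0.56 for CLDN4, with adjusted p between 0.815 and 0.973. The females also had less proximal tubule RNA, given above, and the part of this in the claudin differences was not tested.

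**Figure D5:**
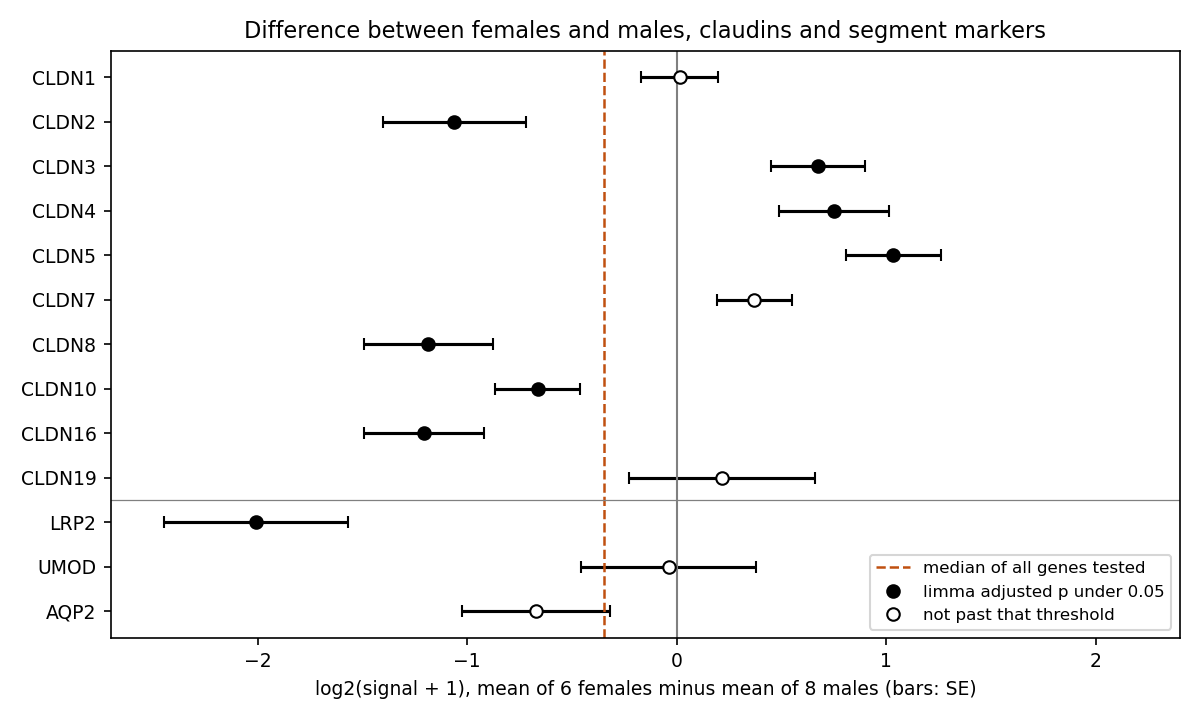
Difference of the mean log2(signal + 1) of 6 females minus that of 8 males for the 10 claudins and the 3 segment markers, with SE; filled points passed the limma threshold and the dashed line is the median of all genes, -0.35. CLDN3, CLDN4 and CLDN5 lie to the right of 0, and CLDN2, CLDN8, CLDN10 and CLDN16 lie to the left of the dashed line.

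Other tight junction genes came from a list of 42, of which 27 were tested. Of these 11 were lower in females, near the 35.5% of all genes that were, and 0 were higher, where 2.2% of all genes were. The list median was -0.35, the same as that of all genes to 2 decimals. Those lower by the smallest p included CLDN12 (-1.54, limma adjusted p = 0.000227), the polarity proteins PARD6B (-1.38, adjusted p = 0.000911) and PATJ (-0.84, adjusted p = 0.00218), the adhesion receptor CXADR (-0.90, adjusted p = 0.00511) and the kinase PRKCZ (-0.67, adjusted p = 0.00554). CLDN12 was 0.297 to 1.29 in females and 2.66 to 10.2 in males, without overlap, where 11.9% of all genes had none. Its median in females was 0.940, below the signal of 1 that the filter asked for. The males alone carried it past the filter, so its place on the list leans on the group where it is high. In the fit on LRP2 7 of the 27 had a positive slope that passed and 2 a negative one, against 18.1% and 2.86% of all genes. Of 15 tested genes of a magnesium and calcium handling list of 21, 4 were lower in females and 0 higher, a smaller share than the 35.5% of all genes that were lower. They were the parathyroid hormone receptor PTH1R (-0.98), the channel TRPM7 (-0.95), the calcium pump ATP2B1 (-0.46) and calbindin CALB1 (-1.14), named after their values were seen. CASR, the calcium-sensing receptor of the thick ascending limb, had a difference of -0.30 that did not pass (adjusted p = 0.195).

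The genes most like each claudin were the 3 with the highest r over the 14 libraries among 4855 genes of at least median level. For CLDN2 they were ACOT4 (r = 0.98), GSS, the glutathione synthetase (0.97), and SLC23A1, a vitamin C transporter (0.96). For CLDN16 they were HS6ST2 (0.93), FAM98B (0.90) and ERVMER34-1 (0.90), and for CLDN19 SIM2 (0.96), MRPS6 (0.96) and NYNRIN (0.94). CLDN10 was most like MFAP3L (0.95), TMEM30B (0.94) and RBL2 (0.94), and CLDN8 most like ATP6AP2, the prorenin receptor (0.96), PRPS2 (0.96) and TPD52 (0.96). The lists of CLDN3, CLDN4 and CLDN7 touch. CLDN4 was most like AHNAK (0.93), C1QTNF5 (0.93) and HOXB3 (0.92), CLDN7 like AHNAK (0.96), EPS8L1 (0.93) and CLDN4 (0.92), and CLDN3 like CLDN4 (0.90), CDC42EP2 (0.89) and CHKA (0.87). CLDN5 was most like EGFL7 (0.92), FAM193B (0.83) and MAPK11 (0.83), and CLDN1 like PRKX (0.76), VWA5A (0.69) and CFDP1 (0.68), the weakest likeness of the 10. These r pool the sexes, and some were lower within a sex. CLDN5 with FAM193B had 0.22 within females, and within males CLDN8 with PRPS2 had 0.58 and CLDN16 with HS6ST2 0.64. Others held, such as CLDN2 with ACOT4 at 0.98 within females and 0.93 within males.

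The authors' deposited tables also assign each transcript a co-expression module by colour, separately for each sex. In the authors' deposited table of females 6 of the 13 claudin transcripts shared a module with UMOD and AQP2: CLDN4, CLDN7 X1, CLDN8, CLDN10 X1, CLDN16 and CLDN19. CLDN2 was in the module of LRP2. In the authors' deposited table of males 7 of 13 were with UMOD: CLDN3, CLDN4, CLDN7 X1, CLDN10 X1, CLDN10 X3, CLDN16 and CLDN19. CLDN2, CLDN8 and CLDN10 X2 were with LRP2 and 1 of the AQP2 transcripts, X2, and CLDN1 was with the other AQP2 transcripts. CLDN5 was in a module without the 3 markers in both tables. The share of all transcripts in each module was not computed, so these counts cannot be set against module size. The modules belong to the same deposited data as the correlations above and are not independent of them.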

How the data were processed

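Stranded mRNA libraries of 17 kidney cortex biopsies (8 females, 9 males) were sequenced, and 1 table per sex was deposited. Each deposited value is a signal for 1 transcript in 1 library, and from the values themselves the authors had added 1. Partek is named in the submitters' processing notes. Of the aligner, the counting and the scaling, and of the genome build, nothing is given in the sources used here. The male table was held in part, with 17119 complete rows, all among the 26644 female transcripts. The rest was not analysed here, and 2097 of 10007 shared genes lacked some transcripts, though no claudin did.

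Transcript identifiers linked both tables. After 1 was taken off each value, a gene was the sum of its transcripts. limma 3.58.1 (R 4.3.3, mean-variance trend) was fitted to log2(signal + 1) over the 9709 genes that reached a signal of 1 in 6 or more of 14 libraries, with Benjamini-Hochberg adjustment over all of them and a threshold of 0.05. Fold changes on this scale understate changes of low genes. Claudin values, at all levels, were whole multiples of 1 read, within 0.1 of a step, in 92.4% of cases. Among genes with all their transcripts in both tables, zeros and high values left out, 56.5% to 69.8% were so by library. These shares come from unlike sets. Because many gene values were not whole, no count test was run. Correlations used 100000 permutations, or all permutations within a sex, in Python 3.11.15. Calls were checked on simulated data. Each animal gave 1 library, and replicate numbers follow accession order and pair nothing.

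The claudins and the gene lists were chosen with earlier results of these data known. Named genes were the 10 claudins, 3 markers, the 3 genes of highest r per claudin, the first 6 called tight junction genes by p and all tested endothelial genes. Of these, 1 gene is not reported here. Alternatives were pseudocount, scaling, filter, trend, covariates, library subsets and leaving out each library. No sequences are printed.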

Additional observations from a re-analysis of the deposited data

Results flagged for a closer look

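Among 50 sets of values examined, 2 held a library far from the others of its sex, where chance alone gives about 5% of sets. CLDN8 in females was 5.73 in female 6, and the next lowest female had 21.3. Female 6 was also the shallowest of the 14 libraries. CLDN7 transcript X1 in males was 7.74 in male 2, and the next lowest male had 11.1.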

How the results depend on the processing

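Of 249 sex differences of single claudins under the alternatives, 202 kept their side of the threshold, 189 of them with their direction. As deposited 4 claudins were lower and 3 higher in females. Lower claudins numbered 2 with median scaling, 1 with upper quartile scaling, 0 with all 17 libraries, 0 with age as a term, with or without median scaling, and 1 with the males of library numbers under 100. Higher claudins numbered 1, 0, 0 and 1 with all 17 libraries, age, age with median scaling, and those males. Leaving out 1 library gave 3 to 4 lower and 1 to 3 higher. Of the differences that had passed, those of CLDN3 and CLDN4 turned to -0.21 and -0.11 with all 17 libraries, and that of CLDN2 to 0.054 with age and median scaling. A further 13 values turned for CLDN1, CLDN7 and CLDN19, which had not passed.

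Negative slopes on LRP2 (5) fell to 1 with sex as a term, 1 in females only, 0 in males only and 1 without female 3 and female 4, where positive slopes (1) became 3. Positive slopes on UMOD (1) became 4 with sex as a term and 0 in females only, in males only or without female 6 and female 3, and negative ones (0) became 1, CLDN2, with median or upper quartile scaling. Positive slopes on AQP2 (3) became 0 with median scaling, upper quartile scaling, males only or without female 6 and female 7. Leaving out 1 library gave 1 to 5 negative and 1 to 3 positive slopes on LRP2, 1 positive on UMOD and 0 to 3 positive on AQP2, with 0 negative on UMOD and AQP2. In the joint fit sex as a further term left 1 positive and 1 negative slope on LRP2, and median scaling gave 1 negative slope on AQP2. Slopes that had passed and turned were CLDN5 on LRP2 in females only (0.079), CLDN7 on LRP2 in males only (0.26), CLDN19 on LRP2 without the 2 libraries (0.067), CLDN8 on AQP2 in males only (-0.12) and CLDN16 on LRP2 in the joint fit with sex (-0.057). Of slopes that had not passed, 12 on LRP2, 14 on UMOD and 12 on AQP2 turned in the single fits, and 2, 2 and 5 in the joint fit. The cause was not tested.

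The CLDN16 to UMOD and CLDN19 to CLDN16 ratios passed in all 16 alternatives, with p up to 0.0119 (exact permutation). This outcome was fixed in advance. The alternatives were subsets of the same libraries, whose sexes did not overlap, so each subset had to give its smallest possible p. They add nothing on how stable these ratios are. The joint slopes with median scaling, age with median scaling and the ratios were chosen after seeing the data. No paired analysis was possible because the replicate numbers follow accession order and each animal belongs to 1 sex. Depth limits the claudins most in female 6, where CLDN16 rests on 12 reads.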
